A study of Bos taurus with 42 samples.

Results

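Among the liver genes with more reads in nutrient restricted bovine fetuses, 4 are described here over tissues, diets and single libraries: *ENTPD8* (ENSBTAG00000030246), *TMEM86B* (ENSBTAG00000051212), *RRP1B* (ENSBTAG00000017418) and *IFITM5* (ENSBTAG00000020575). They are 4 of the 22,664 genes with read counts, and their identifiers were paired with symbols through the supplementary tables of the study. They were selected on their liver read counts, for higher values in RES, and 3 of them, all but *TMEM86B*, belong to the liver genes that the study itself listed for a diet difference. Their liver difference between diets is therefore given as a description, with no test.

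Liver, cerebrum and muscle of the hind limb were sequenced from 14 fetuses collected at day 50, which gave 42 RNA-Seq libraries. The dams were heifers bred to the same bull and assigned to a diet after breeding: 7 received 100% of their requirements for the planned gain (CON), and 7 received 60% of the CON delivery of the same kind of ration (RES). The CON fetuses were 6 males and 1 female, and the RES fetuses were 5 males and 2 females. Each library came from a separate piece of whole tissue, so the cell types within it are mixed, and the values cannot tell fewer cells of a type from less RNA per cell. Fetuses are called by the animal numbers of the study, such as RES 1 or CON 2.

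The 4 genes act in unrelated processes. *ENTPD8* encodes an ectonucleotidase of the hepatocyte, a membrane enzyme that removes phosphates from nucleotides outside the cell, and in the liver it sits on the canalicular membrane facing the bile. *TMEM86B* encodes a lysoplasmalogenase, a membrane enzyme that breaks the vinyl ether bond of lysoplasmalogens and so acts in the turnover of ether lipids. *RRP1B* encodes a nucleolar protein that takes part in ribosomal RNA processing, binds protein phosphatase 1 and can act as a partner of the transcription factor E2F1. *IFITM5* encodes a membrane protein of the interferon-induced transmembrane family that is best known from osteoblasts, the cells that lay down bone.

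The libraries held between 4,145,093 and 12,741,299 counts, and the liver libraries between 6,658,218 and 12,741,299. Values are given as CPM, a count divided by the library total in the usual unit, scaled with TMM factors over the 42 libraries. Gene lengths were not used here, so the number of reads ranks no gene above another in expression. The tissue labels were checked against marker genes. All 17 hepatocyte markers with a symbol had reads in every liver library, and their summed level had a median of 250,258 CPM in CON and 281,199 CPM in RES. The neuron and neural progenitor markers, led by *STMN2*, had a median sum of 4239 CPM in the CON cerebrum against 3.67 CPM in the CON liver. The skeletal muscle markers had a median sum of 4444 CPM in CON muscle against 13.6 CPM in the CON liver. Some libraries stood apart in markers of another tissue. Muscle CON 73 and muscle RES 1 held 1554 and 363 CPM of neuron markers, against 27.1 to 75.8 CPM in the other 12 muscle libraries, and cerebrum RES 1 held 282 CPM of skeletal muscle markers, against 13.4 to 45.8 CPM in the other 13 cerebrum libraries.

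The liver libraries differed in their share of counts on 12 mitochondrially encoded genes. This share was 67.7% in RES 1, 44.9% in CON 2, 35.6% in RES 6 and 30.5% in RES 33, and it lay between 4.04% and 16.4% in the other 10 liver libraries. The median share was 5.84% in CON and 12.6% in RES. Since 3 of the 4 libraries above 20% belong to RES, the liver values are given below with and without them. That limit was set after the data were seen.

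*ENTPD8* was read at 305 ± 94.4 CPM in the CON liver and 669 ± 358 CPM in the RES liver (mean ± SD, n = 7 each), a ratio of means of 2.19. The lowest, median and highest values were 173, 274 and 463 CPM in CON, and 256, 541 and 1285 CPM in RES. The highest RES libraries were RES 33 at 1285 CPM, RES 6 at 914 CPM and RES 1 at 827 CPM, and RES 25 at 541 CPM was the fourth library above every CON library. The groups overlapped, because RES 52, RES 55 and RES 70 at 458, 401 and 256 CPM lay within the CON range. This order of libraries depends on the TMM factors. As CPM of the library total without these factors, RES 1 stood at 157, within the CON range of 112 to 285, while RES 52 at 363 and RES 55 at 300.0 lay above it.

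*TMEM86B* was read at 228 ± 89.1 CPM in the CON liver and 537 ± 309 CPM in the RES liver, a ratio of 2.35. The CON libraries ran from 110.0 CPM in CON 46 over a median of 244 CPM to 322 CPM in CON 23. The RES libraries ran from 165 CPM in RES 70 over a median of 403 CPM to 965 CPM in RES 1. RES 1, RES 6 and RES 33 stood apart with 965, 836 and 750.4 CPM, and 5 of the 7 RES libraries lay above all of CON. As CPM of the library total, RES 1 stood at 183, within the CON range of 85.7 to 208, and 4 RES libraries lay above that range.

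*RRP1B* showed the smallest ratio of means of the 4 genes, 1.71, with 59.7 ± 18.5 CPM in the CON liver and 102 ± 32.9 CPM in the RES liver. Its lowest, median and highest values were 44.3, 50.4 and 92.5 CPM in CON, and 52.1, 105 and 138 CPM in RES. The CON maximum belonged to CON 2, the CON library with the high mitochondrial share, and 4 of the 7 RES libraries exceeded it. As CPM of the library total, RES 1 had the lowest value of all, 26.2, below the CON range of 34.5 to 48.0, and 5 RES libraries lay above that range.

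*IFITM5* had few reads in the liver, between 4 and 44 counts per library, so counting error weighs more on it than on the other 3 genes. It was read at 1.85 ± 0.833 CPM in CON and 6.98 ± 4.79 CPM in RES, a ratio of 3.77. The CON libraries ran from 0.745 CPM over a median of 1.94 CPM to 3.12 CPM in CON 2. The RES libraries ran from 1.955 CPM in RES 70 over a median of 4.41 CPM to 14.9 CPM in RES 1. The remaining 6 RES libraries lay above every CON library, and RES 70 was the exception. As CPM of the library total, RES 1 stood at 2.83, below RES 6 at 4.71, RES 33 at 4.34 and RES 55 at 2.897.

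**Figure D1:**
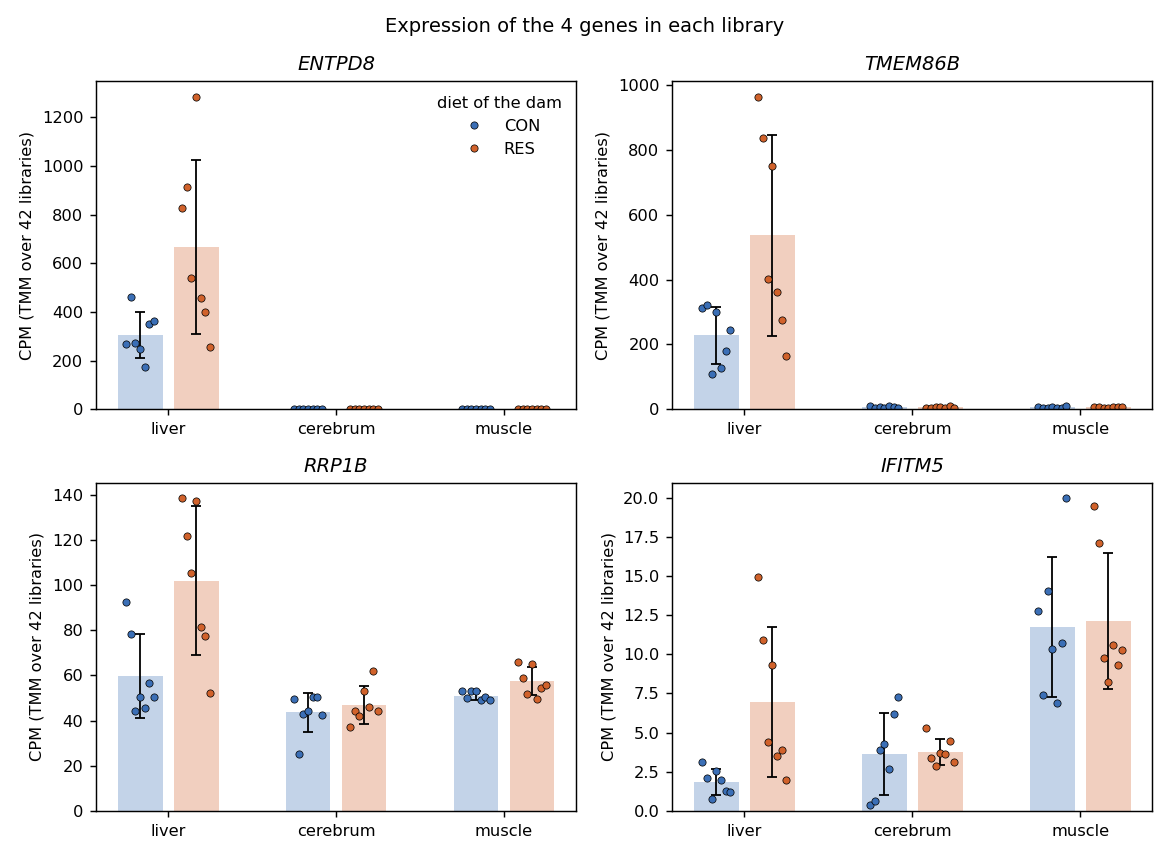
CPM of the 4 genes in each library (points), by tissue and diet of the dam, with bars for the mean and whiskers for the SD of 7 fetuses, on a separate linear axis for each gene. In the liver the RES points of *ENTPD8* reach from 256 to 1285 CPM and overlap the CON points at 173 to 463 CPM, and the same overlap holds for the other 3 genes.

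For each of the 4 genes the liver groups overlapped, and 0% of the 13,527 genes tested in the liver had every RES library above every CON library. In the edgeR fit with fetal sex as a covariate, the liver estimates of RES against CON on the log2 scale were 1.204 for *ENTPD8* (SE 0.22), 1.29 for *TMEM86B* (SE 0.27), 0.82 for *RRP1B* (SE 0.18) and 1.87 for *IFITM5* (SE 0.42). The median of all genes was -0.03, and 2.21% of them had an estimate of more than 2-fold higher. These estimates chose the genes and are listed for their size alone.

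Fetal sex ran along with part of the liver spread. The 2 RES females, RES 55 and RES 70, had the lowest RES values of *ENTPD8*, *TMEM86B* and *RRP1B*, and the CON female, CON 68, had the lowest CON value of *ENTPD8*, 173 CPM. For *TMEM86B*, *RRP1B* and *IFITM5*, CON 68 was not the lowest, at 127, 45.4 and 1.94 CPM against male minima of 110.0, 44.3 and 0.745 CPM. *IFITM5* was at 1.955 and 3.87 CPM in the RES females, which overlapped the RES males, from 3.48 CPM. Among males alone, *ENTPD8* ran from 247 to 463 CPM in 6 CON libraries and from 458 to 1285 CPM in 5 RES libraries. The estimates among males were 1.28, 1.42, 0.90 and 2.18 on the log2 scale for *ENTPD8*, *TMEM86B*, *RRP1B* and *IFITM5*. With 3 females in all, no test of a sex difference was made.

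The high values also ran along with the mitochondrial share. In the 10 liver libraries with a share under 20%, 6 of CON and 4 of RES, the RES to CON ratio of means was 1.33 for *ENTPD8*, 1.41 for *TMEM86B*, 1.46 for *RRP1B* and 2.09 for *IFITM5*. Thus *ENTPD8* stood at 311 ± 102 CPM in 6 CON libraries against 414 ± 120.2 CPM in 4 RES libraries. *IFITM5* stood at 1.64 ± 0.677 against 3.43 ± 1.05 CPM in the same libraries. The 4 ratios were smaller without the high-share libraries, and since the same RES values chose the genes, their direction is no separate support.

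In CON 2, whose share of 44.9% was the second highest of the liver, *ENTPD8* was at 267 CPM, below the CON median. *TMEM86B* was at 311 CPM, within the upper part of the CON range, while *RRP1B* and *IFITM5* had their CON maximum in this library.

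Across the 14 liver libraries, the Pearson correlation of log2 CPM with the log2 mitochondrial share was 0.64 for *ENTPD8*, 0.85 for *TMEM86B*, 0.89 for *RRP1B* and 0.86 for *IFITM5*, against a median of -0.15 over all genes. Of all genes, 72.8%, 85.2%, 89.1% and 86.1% lay below these values, and the remaining genes had values as high. These values are descriptions of 14 libraries that both measures share. With the log2 share as a second covariate, the liver estimates were 0.98, 0.76, 0.51 and 1.09 on the log2 scale. The part of the mitochondrial share in the diet difference was otherwise not tested.

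**Figure D2:**
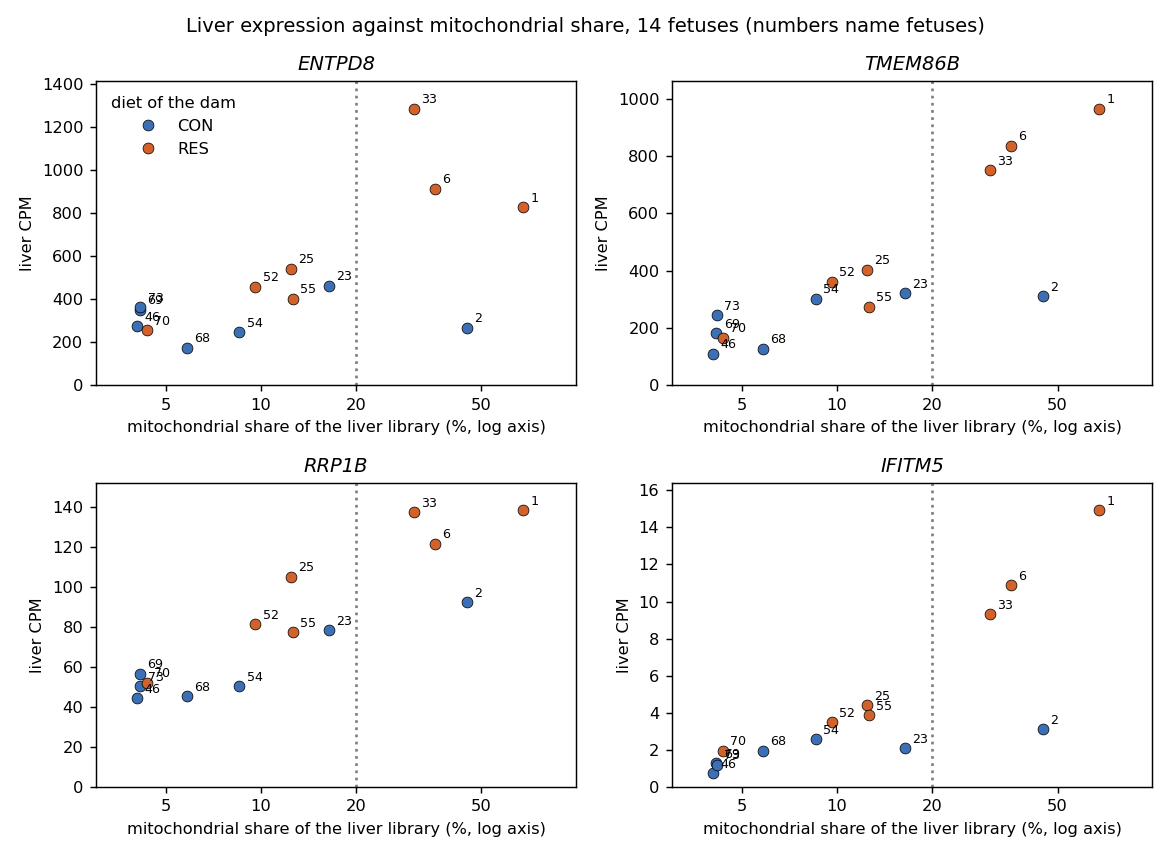
Liver CPM of each gene (linear axis) against the percent of counts on mitochondrially encoded genes (log axis), 1 numbered point per fetus coloured by diet, with a dotted line at 20%. RES 1, RES 6 and RES 33, at 67.7%, 35.6% and 30.5%, hold high values of all 4 genes, whereas CON 2 at 44.9% lies among the CON points for *ENTPD8*.

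The liver estimates kept their sign when any fetus was left out. Higher RES values in these libraries chose the genes, so the sign is no separate support. The estimates ranged from 1.02 (without RES 33) to 1.30 (without RES 52) for *ENTPD8*, from 1.13 to 1.43 for *TMEM86B*, from 0.74 to 0.91 for *RRP1B* and from 1.61 to 2.18 for *IFITM5*, the lower ends of the last 3 without RES 1. Scaling to total counts without TMM factors gave 0.75, 0.82, 0.45 and 1.37, but that scaling moved the median of all genes to -0.37. Relative to this median the values were 1.13, 1.198, 0.82 and 1.75.

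**Figure D3:**
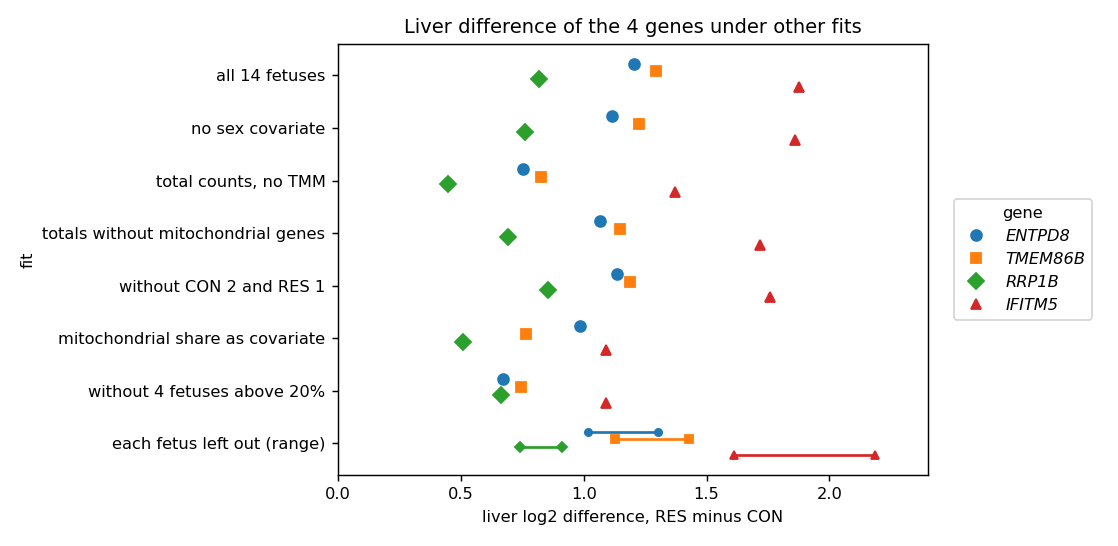
Estimated liver difference of RES against CON (log2) for each gene in the fit with TMM factors and sex (top) and in 6 other fits, with the range over the omission of each fetus as a line at the bottom. All points lie above 0, and the lowest for *ENTPD8*, 0.67, comes from leaving out the 4 fetuses with a liver mitochondrial share above 20%. The sign is no separate support, since higher RES liver values chose the genes.

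The 4 genes varied together between liver libraries of the same diet. With the diet means taken out, the Pearson correlation of log2 CPM over 14 libraries was 0.89 for *TMEM86B* with *IFITM5*, 0.87 for *TMEM86B* with *RRP1B* and 0.82 for *RRP1B* with *IFITM5*. *ENTPD8* went with *TMEM86B* at 0.79, with *RRP1B* at 0.76 and with *IFITM5* at 0.59. Over all genes the median correlation was -0.07 with *ENTPD8* and -0.12 with *TMEM86B* and with *RRP1B*. With diet means taken out, the rank (Spearman) correlation with the mitochondrial share was 0.66 for *ENTPD8*, 0.86 for *TMEM86B*, 0.77 for *RRP1B* and 0.94 for *IFITM5*. The part of that share in the correlations between genes was not tested. The values share libraries and depth and are given as descriptions.

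Genes with a similar pattern were common for 3 of the 4. Over the same 14 libraries, 328 of 13,526 other genes had a correlation above 0.9 with *TMEM86B*, 688 with *RRP1B* and 520 with *IFITM5*, but 0 with *ENTPD8*. The named genes nearest to *ENTPD8* were *FOXN3* (0.88), a forkhead transcription factor, and *FRMPD1* (0.87). *TRIM47* (0.98), which encodes a tripartite motif protein, was nearest to *TMEM86B*. *PLIN3* (0.96), which encodes a lipid droplet coat protein, was among the 3 nearest to *IFITM5*, and the 3 nearest to *RRP1B* had no symbol in the tables used.

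Hepatocyte content was set beside *ENTPD8*. The summed hepatocyte markers ran from 126,691 to 310,280 CPM in the CON liver and from 147,670 to 400,188 CPM in the RES liver, so the groups overlapped. Per 1000 counts of these markers, the liver held a median of 1.35 *ENTPD8* counts in CON (0.691 to 2.11) and 2.46 in RES (0.868 to 4.50). The marker with most reads was *SERPINA1* in 8 liver libraries and *AHSG* in 6, and their diet estimates had opposite signs (0.58, adjusted *p* = 0.293, and -0.77, adjusted *p* = 0.220 by edgeR). Of the 17 markers, 4 were higher in RES at an unadjusted *p* under 0.05 (*APOA2*, *APOC3*, *VTN* and *PFKFB1*, named after their values were seen) and 0 were lower, against 13.5% and 10.6% of all genes. Red cell precursors, which the fetal liver also holds, had median marker sums of 14,436 CPM in CON and 13,947 CPM in RES. Of these 10 markers, 0 passed the adjustment. At the unadjusted level 2 were higher (*GATA1*, 0.67, and *KLF1*, 0.71) and 2 were lower (*HBE4*, -1.04, and *HEMGN*, -0.47). These 4 were named after their values were seen.

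The osteoblast marker *BGLAP* (osteocalcin, a bone matrix protein) was set beside *IFITM5*. In the liver *BGLAP* was at 50.1 CPM in RES 1, 27.7 CPM in RES 6, 18.6 CPM in RES 33 and 12.5 CPM in CON 2, and at or below 7.14 CPM in the other 10. These are the 4 libraries with the high mitochondrial share. *RUNX2*, the other osteoblast marker tested in the liver, went the other way. It stood at 1.49 ± 0.449 CPM in CON and 1.18 ± 0.888 CPM in RES (log2 difference -0.39, adjusted *p* = 0.601 by edgeR). In RES 6 and RES 33 it was at 0.247 and 0.212 CPM, from 1 count each, and in RES 1 and CON 2 at 2.07 and 2.08 CPM. *RUNX2* was named after its value was seen. In muscle, where *RUNX2* was at 31.8 CPM in CON and 35.0 CPM in RES, *BGLAP* was at 1.82 and 1.97 CPM. The 2 markers thus did not go together over the tissues. The part of other cell types in the *IFITM5* values was not tested.

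Across tissues, *ENTPD8* was a liver gene in these fetuses. It had 32,883 counts over the 14 liver libraries, 29 counts over the 14 cerebrum libraries and 25 counts over the 14 muscle libraries, with 8 cerebrum and 5 muscle libraries at 0. The lowest liver library had 980 counts, and the highest library of the other tissues had 12. No test is given for this difference, because *ENTPD8* passed the filter over all libraries only through the liver. Cerebrum and muscle lay at or near the floor of 3 counts per library and were not ordered against each other.

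*TMEM86B* was also highest in the liver, with 382 ± 271 CPM there against 5.86 ± 2.44 CPM in the cerebrum and 5.84 ± 1.495 CPM in muscle (n = 14 each). Liver exceeded cerebrum by 5.89 (SE 0.30, adjusted *p* = 1.29e-21) and muscle by 5.92 (SE 0.30, adjusted *p* = 1.1e-21) in the edgeR test. The RES livers, whose high values chose *TMEM86B*, are part of this fit. In CON libraries alone the means were 228 CPM in the liver, 6.31 CPM in the cerebrum and 6.005 CPM in muscle, and the smaller CON estimates are given below. The lowest liver library, at 110.0 CPM, was above the highest of the other tissues, 10.4 CPM. Cerebrum and muscle did not differ beyond their spread, with an interval of -0.55 to 0.49 for muscle against cerebrum.

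*RRP1B* was expressed in all tissues, at 80.8 ± 33.7 CPM in the liver, 45.3 ± 8.35 CPM in the cerebrum and 54.2 ± 5.45 CPM in muscle. With TMM factors the liver exceeded cerebrum by 0.78 (SE 0.13, adjusted *p* = 1.15e-06) and muscle by 0.53 (SE 0.13, adjusted *p* = 0.000374), but with total counts as the scale both estimates turned negative, to -0.39 and -0.61. Since total counts moved the median of all genes to -1.20 and -1.23, the values relative to that median were 0.81 and 0.62, against 0.95 and 0.74 with TMM factors. The RES livers, whose high values chose *RRP1B*, are part of these fits. In CON libraries alone, the liver exceeded cerebrum by 0.50 (adjusted *p* = 0.00881), and the difference from muscle was 0.21 and did not pass (adjusted *p* = 0.247). Muscle and cerebrum did not pass the threshold, at 0.25 (SE 0.13, adjusted *p* = 0.0892).

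*IFITM5* was highest in muscle, with 11.9 ± 4.23 CPM against 4.41 ± 4.24 CPM in the liver and 3.70 ± 1.86 CPM in the cerebrum. Muscle exceeded cerebrum by 1.65 (SE 0.30, adjusted *p* = 6.87e-06) and the liver was lower than muscle by 1.64 (estimate -1.64, SE 0.31, adjusted *p* = 7.82e-06). Liver and cerebrum were not ordered against each other, because the RES livers that chose *IFITM5* are part of the fit. In CON libraries alone the means were 1.85 CPM in the liver and 3.62 CPM in the cerebrum (-0.94, adjusted *p* = 0.0648 by edgeR). Without the 4 fetuses whose liver had a mitochondrial share above 20% the estimate was -0.68 (adjusted *p* = 0.0384), and on total counts it was -1.27. Total counts moved the median of all genes down by nearly as much, as given for *RRP1B*, so this last value orders nothing.

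Of the 3 genes tested between tissues, *TMEM86B* and *RRP1B* were called higher in the liver than in the cerebrum, where 38.5% of 15,972 genes were, and higher than in muscle, where 36.6% were. For *IFITM5*, the call of lower in the liver than in muscle was made for 45.5% of genes, and the call of higher in muscle than in cerebrum for 32.2%. Of the genes called, 46.01% were higher in the liver than in the cerebrum with TMM factors and 23.2% on total counts, and 44.6% and 19.1% were higher than in muscle. Both liver contrasts use the same liver libraries, and the RES liver values chose the genes. For *RRP1B*, the call over muscle was lost in CON libraries alone, and both liver estimates were negative on total counts, as given above. In CON libraries alone, liver exceeded cerebrum by 5.21 for *TMEM86B* (adjusted *p* = 1.66e-12). Against muscle the CON estimates were 5.23 for *TMEM86B* (adjusted *p* = 1.72e-12) and -2.64 for *IFITM5* (adjusted *p* = 1.59e-05). *ENTPD8* had 11,547 counts in the 7 CON livers against 2 in CON cerebrum and 11 in CON muscle.

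Over all 42 libraries, the genes most like *ENTPD8* were *AGXT2* (Pearson correlation 0.99), *OTC* (0.99), an enzyme of the urea cycle, and *AOC1* (0.99), an amine oxidase. These 3 were read at 76.8, 139 and 83.5 CPM in the liver and below 0.05 CPM in both other tissues. *RRP1B* was nearest to *CLASRP* (0.92) and *QTRT1* (0.91), and *SPSB1* (0.85) was among the 3 genes nearest to *IFITM5*. For *TMEM86B* the 3 nearest genes had no symbol in the tables used. Such values were common for the 2 genes that were highest in the liver. Of 15,971 other genes, 1379 had a correlation above 0.9 with *ENTPD8* and 1342 with *TMEM86B*, but 12 with *RRP1B* and 0 with *IFITM5*. These correlations span 3 tissues, so they are not independent of the tissue differences above. *ENTPD8* was at or near the floor outside the liver, so the genes named for it are not set apart from other liver genes.

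The cerebrum and muscle libraries were not used in choosing the 4 genes, so the diets were tested there. By edgeR's quasi-likelihood test at an adjusted *p* of 0.05, 0 of the 3 genes tested (*TMEM86B*, *RRP1B* and *IFITM5*) differed between diets in the cerebrum or in muscle, and the background was 0% of 15,151 genes in the cerebrum and 0% of 14,947 in muscle. At an unadjusted *p* under 0.05 the test gave 387 genes in the cerebrum, 1480 in muscle and 3260 in the liver, and DESeq2's Wald test called 0, 13 and 86 genes after adjustment. Neither the cerebrum nor the muscle calls of DESeq2 included any of these 3.

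In the cerebrum, *RRP1B* was read at 43.6 ± 8.76 CPM in CON and 46.9 ± 8.25 CPM in RES (log2 difference 0.05, interval -0.27 to 0.37, adjusted *p* = 0.999 in edgeR's test). *TMEM86B* stood at 6.31 ± 2.80 against 5.42 ± 2.13 CPM (-0.32, interval -0.92 to 0.29, adjusted *p* = 0.999). *IFITM5* stood at 3.62 ± 2.61 against 3.78 ± 0.834 CPM (0.07, interval -0.88 to 1.01, adjusted *p* = 0.999). The CON spread of *IFITM5* was wide, from 0.369 CPM in CON 2 and 0.646 CPM in CON 23 to 7.30 CPM in CON 73, and all RES libraries lay within it, between 2.90 and 5.28 CPM.

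*ENTPD8* was below the expression filter in the cerebrum and in muscle. In the cerebrum it had 2 counts in all of CON, both in CON 46. RES held 27 counts, of which 12 were in RES 1 and 10 in RES 33, the only cerebrum libraries above the floor of 3 counts. Without the filter, the fitted log2 difference was 3.41 in the cerebrum (unadjusted *p* = 0.00298, adjusted *p* = 0.956 by edgeR) and 0.52 in muscle (adjusted *p* = 0.822). With 2 counts in CON, the size of the cerebrum value depends on the prior count of the fit.

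The same RES cerebrum libraries held the most albumin reads. *ALB* was at 71.5 CPM in RES 1 and 42.1 CPM in RES 33, and at most 13.2 CPM in the other 12 cerebrum libraries. The hepatocyte marker sum was 6159 CPM in the cerebrum of RES 1, of which 5627 CPM were *TTR*, a gene that the choroid plexus of the brain also expresses, and 364 CPM in that of RES 33. Other cerebrum libraries with 0 to 2 *ENTPD8* counts had higher sums than RES 33, mostly of *TTR*: 1190 CPM in RES 25, 914 CPM in RES 52, 911 CPM in CON 46 and 648 CPM in CON 23. Per 1000 hepatocyte marker counts, *ENTPD8* had 0.245 counts in RES 1 and 4.42 in RES 33, and RES 70 had 4.57, from 1 *ENTPD8* count. Over the list, 12 of 12 hepatocyte markers tested in the cerebrum had a higher estimate in RES (median log2 difference 2.17), with 0 called and 6 higher at an unadjusted *p* under 0.05, against 2.19% of all genes. This was not limited to hepatocyte genes: 9 of 9 skeletal muscle markers (median 1.88, 6 at that level) and 8 of 8 red cell precursor markers (median 1.63, 4 at that level) had higher estimates in the RES cerebrum as well, while 44.9% of all genes did. RES 1 was again the highest cerebrum library, with 282 CPM of both. Markers with few reads were left out by the filter, and some of those tested passed mainly through RES libraries. An example is *APOB*, at 0.158 CPM in CON and 1.26 CPM in RES, named after its values were seen. The counts of higher estimates were thus partly set by the filter and are no separate support. The part of liver RNA in the cerebral *ENTPD8* counts was not tested.

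In muscle, *RRP1B* came nearest to a diet difference. It was read at 51.1 ± 1.86 CPM in CON and 57.4 ± 6.17 CPM in RES. The CON libraries were close together, from 49.1 CPM in CON 68 over a median of 50.3 CPM to 53.1 CPM in CON 46. The RES libraries ran from 49.8 CPM in RES 52 over a median of 55.9 CPM to 65.9 CPM in RES 1, and 5 of the 7 lay above all of CON, although RES 25 and RES 52 did not. A full separation in this direction held for 0.0535% of genes in muscle and 0.0132% in the cerebrum, and for 0 of the 3 genes tested. The log2 difference of 0.16 (SE 0.07, interval 0.03 to 0.30) had an unadjusted *p* of 0.0283 in edgeR's test, where 5.00% of genes were higher at that level, and it did not pass the adjustment (adjusted *p* = 0.482).

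*TMEM86B* and *IFITM5* overlapped between the diets in muscle, with 0 RES libraries above every CON library. *TMEM86B* stood at 6.005 ± 1.99 CPM in CON and 5.68 ± 0.914 CPM in RES (-0.11, SE 0.21, adjusted *p* = 0.863 by edgeR). *IFITM5* stood at 11.7 ± 4.46 and 12.1 ± 4.34 CPM (0.12, SE 0.24, adjusted *p* = 0.878), and its highest values were 19.9 CPM in CON 73 and 19.5 CPM in RES 1, the 2 muscle libraries with 1554 and 363 CPM of neuron markers. Without CON 73 the estimate was 0.28 and without RES 1 it was -0.02, and the part of these markers was not tested. *ENTPD8* had between 0 and 5 counts per muscle library, 11 in CON and 14 in RES.

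**Figure D4:**
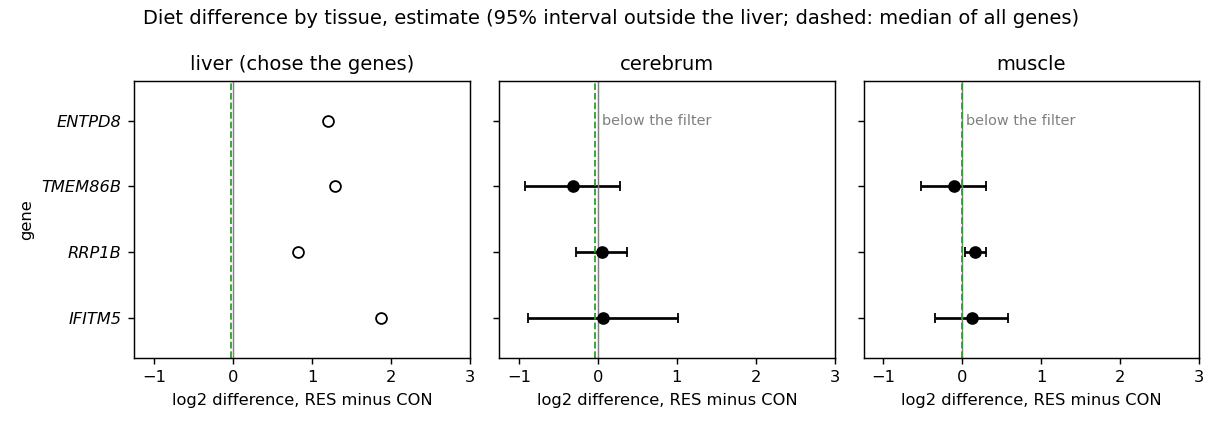
Estimated difference of RES against CON (log2) for each gene in the liver (open points, no interval), the cerebrum and muscle (95% intervals), where *ENTPD8* was below the filter in the last 2 tissues and the dashed line is the median of all genes. The liver estimates, which chose the genes and carry no test, lie between 0.82 and 1.87, and the cerebrum and muscle estimates lie between -0.32 and 0.16.

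The pathways around each gene were followed with lists of genes, of which the share with a symbol could be analysed. Extracellular nucleotide breakdown and purine signalling, the process of *ENTPD8*, had 13 of 38 genes with a symbol, *ENTPD8* included, and 11 others were tested in the liver. Of these, 0 passed the adjustment (background 0% of 13,527 genes by edgeR), and 1 had an unadjusted *p* under 0.05 with a higher estimate, against 13.5% of all genes. It was the adenylate kinase *AK1* (20.2 to 45.0 CPM, log2 difference 1.12, adjusted *p* = 0.184), named after its value was seen. The nucleoside transporter *SLC29A1*, with the most reads of the list, stood at 734 ± 82.3 CPM in CON and 799 ± 119 CPM in RES (0.13, adjusted *p* = 0.492). The uridine nucleotide receptor *P2RY6* stood at 72.8 and 108 CPM (0.58, adjusted *p* = 0.252), and adenosine deaminase, *ADA*, at 53.8 and 56.6 CPM (0.08, adjusted *p* = 0.760).

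Of the ectonucleotidase family, 2 other members had a symbol. *ENTPD4*, an enzyme of internal membranes, was read at 51.7 ± 17.8 CPM in the CON liver and 50.5 ± 15.7 CPM in the RES liver (-0.10, adjusted *p* = 0.783 by edgeR). *ENTPD7* was read at means of 7.62 and 4.53 CPM (-0.89, adjusted *p* = 0.238). The list had a median log2 difference of 0.08 in the liver, against -0.03 over all genes. Over the omission of single fetuses this median ran from 0.04 to 0.19, and 0 to 4 genes of the list had an unadjusted *p* under 0.05. On total counts, which also lowered the median of all genes, it was -0.34.

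Ether lipid synthesis and breakdown, the process of *TMEM86B*, had 8 of 27 genes with a symbol and 7 others tested in the liver, with a median log2 difference of -0.10. At an unadjusted *p* under 0.05, *DHRS7B*, a reductase of ether lipid synthesis, was higher (30.5 to 55.7 CPM, 0.88, adjusted *p* = 0.184), and *PLA2G4A*, a cytosolic phospholipase, was lower (9.70 to 6.55 CPM, -0.73, adjusted *p* = 0.187), where 13.5% and 10.6% of all genes were higher and lower by edgeR at that level. Both fell short of the adjustment, and *PLA2G4A* was named after its value was seen. Over the omission of single fetuses, 1 to 4 genes of the list were at that level, and the median ran from -0.20 to -0.04. On total counts, which also lowered the median of all genes, it was -0.39. *AGPS*, which makes the ether bond, stood at 42.8 and 36.4 CPM (-0.33, adjusted *p* = 0.245), *CHPT1* at 43.3 and 40.9 CPM (-0.10, adjusted *p* = 0.680) and *LPCAT1* at 17.3 and 23.1 CPM (0.47, adjusted *p* = 0.242).

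Ribosome biogenesis, the process of *RRP1B*, was the fullest list, with 24 of 66 genes with a symbol and 23 others tested in the liver. Their median log2 difference was 0.23, 17 of the 23 had a higher estimate in RES where 47.9% of all genes did, and 0 passed the adjustment. By edgeR, 6 were higher and 3 were lower at an unadjusted *p* under 0.05, against 13.5% and 10.6% of all genes. The count of 9 ran from 2 (without RES 1) to 15 (without CON 2) when single fetuses were left out and was 0 without the 4 high-share fetuses or with the mitochondrial share as a covariate. The median was -0.13 on total counts, where that of all genes was -0.37, and 0.00 with the covariate. *DKC1*, the pseudouridine synthase of small nucleolar particles, stood at 176 ± 25.7 and 226 ± 53.0 CPM (0.38, adjusted *p* = 0.184), and *PES1* at 124 and 155 CPM (0.36, adjusted *p* = 0.273). The 2 partners of the *RRP1B* protein in the list had estimates of opposite sign. *E2F1* stood at 178 and 226 CPM (0.36, adjusted *p* = 0.187), and the phosphatase subunit *PPP1CB* at 555 and 368 CPM (-0.80, adjusted *p* = 0.188). The other lower genes were *RRP8* (5.90 to 3.802 CPM, -0.83, adjusted *p* = 0.184) and *WDR12* (23.4 to 15.7 CPM, -0.78, adjusted *p* = 0.184), both named after their values were seen.

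The IFITM family and osteoblast genes, listed for *IFITM5*, had 9 of 30 genes with a symbol and 6 others tested in the liver, with a median log2 difference of -0.07. *FKBP11*, a binding partner of the IFITM5 protein, stood at 268 ± 83.4 CPM in CON and 500.3 ± 433 CPM in RES (0.86, adjusted *p* = 0.192). *BGLAP* stood at 4.40 ± 3.73 and 16.5 ± 17.5 CPM (1.89, adjusted *p* = 0.184). These were the 2 higher genes at an unadjusted *p* under 0.05 by edgeR, and, where 13.5% of all genes were higher and 10.6% lower, *TNFRSF11B* (osteoprotegerin) was the 1 lower gene (7.60 to 4.81 CPM, -0.80, adjusted *p* = 0.186), named after its value was seen. The matrix genes *SERPINF1* (0.11, adjusted *p* = 0.727) and *SPARC* (-0.25, adjusted *p* = 0.450) had small estimates.

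In the other tissues 0 genes of the 4 lists passed the adjustment. In muscle, 19 of the 23 ribosome biogenesis genes had a higher estimate in RES, where 48.1% of all genes did, with a median log2 difference of 0.08 against -0.01 over all genes, and *DKC1* (0.18, adjusted *p* = 0.482 by edgeR) and *NOC2L* (0.22, adjusted *p* = 0.482) were higher at an unadjusted *p* under 0.05, against 5.00% of all genes. At that level *RRP8* (-0.32), *FAR2* of ether lipid synthesis (-0.19), *SPARC* (-0.18) and *TNFRSF11B* (-0.55) were lower in muscle, against 4.90% of all genes. Cell type markers moved in the same muscle libraries. Estimates were higher for 15 of 15 skeletal muscle markers (median 0.52), 5 of 5 red cell precursor markers (0.29) and 1 of 7 neuron markers (-1.32), with 0 at that level. Their part in the list values was not tested. In the cerebrum, 10 of 23 ribosome biogenesis genes had a higher estimate, where 44.9% of all genes did, with a median of -0.08. *RRP9* (0.42), *RUNX2* (2.38) and *SPARC* (2.12) were higher there at an unadjusted *p* under 0.05, against 2.19% of all genes, and 0 list genes were lower, against 0.363%. *RUNX2* was at 37.5 CPM in RES 1 and at most 1.87 CPM in the other 13 cerebrum libraries, so its RES mean rests on RES 1. *SPARC* was at 4488 CPM in RES 1 and between 82.3 and 345 CPM in the other 13, so the same holds for it. The genes of this paragraph other than *DKC1* and *SPARC* were named after their values were seen.

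**Figure D5:**
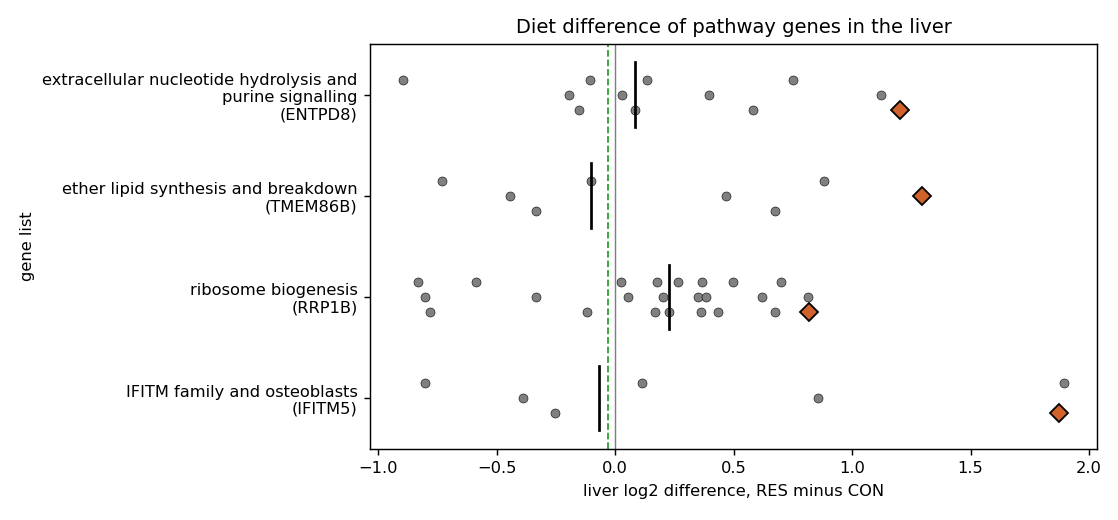
Estimated liver difference of RES against CON (log2) for the genes of the 4 pathway lists that passed the liver filter, 1 grey point per gene, with a black bar at the median of the grey points, a diamond for the gene the list was made for and a dashed line at the median of all genes. The list medians lie between -0.10 and 0.23, and the points spread on both sides of 0 in every list.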

How the data were processed

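The authors mapped strand-specific reads to the bovine genome (ARS-UCD 1.2) with STAR (2.7.3a in the submitters' processing notes) and deposited its gene counts without normalization. The strand column kept is not given in the sources used here. Symbols for 5130 identifiers were taken from the supplementary tables. Each fetus is a separate animal, and the labels map no library to a lane.

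A fit dropped any gene that stayed under 1 CPM in 80% or more of its libraries. *RRP1B*, *TMEM86B* and *IFITM5* passed in every tissue, *ENTPD8* in the liver and over all libraries. Diets were tested within each tissue by edgeR 4.0.16 (R 4.3.3) with its quasi-likelihood test on TMM-normalized counts, fetal sex as covariate and Benjamini-Hochberg adjustment over all genes at 0.05. Tissues were tested over the 42 libraries with sex, diet and tissue. Intervals are 95%. Correlations used log2 CPM with a prior count of 1. The edgeR fits of diet in each tissue and of liver against cerebrum were tested on simulated counts. The other steps were not.

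Alternatives were DESeq2 1.42.0, other scalings and filters, no sex covariate, males only, CON libraries only, the animal as a block, and leaving out each fetus. Omissions by mitochondrial share, and that share as a covariate, were added after seeing the data. Libraries of 1 number come from 1 fetus. Their deviations from the group means had median correlations of 0.03 for liver with cerebrum, 0.12 for liver with muscle and 0.06 for cerebrum with muscle.

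The genes and lists were chosen with earlier results of these data known. Named are the 4 genes, relatives by symbol, up to 4 genes of each pathway list with the most liver reads, the 3 most correlated genes, and neighbours in the gene order of the newer assembly ARS-UCD2.0. Sequences are not analysed here, and the summed level of the osteoblast markers is not reported here.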

Additional observations from a re-analysis of the deposited data

Results flagged for a closer look

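Of 24 groups of 7 libraries (4 genes, 3 tissues and 2 diets), 2 had a library far from the others of its group by Dixon's test at the 95% level, and chance gives about 1 in 20. In the CON cerebrum, CON 46 had *ENTPD8* at 0.340 CPM, from 2 counts, while the other 6 libraries had none. A single library with reads among libraries at 0 always meets this limit, whatever its count. Also in the CON cerebrum, CON 23 had *RRP1B* at 25.4 CPM, while the other 6 lay between 42.4 and 50.4 CPM. The same library was the lowest of its group for *TMEM86B*, at 2.37 CPM. It also stood apart as a whole, with a TMM factor of 0.53 in the fit of the cerebrum libraries alone. The CPM values use other factors, taken over the 42 libraries. In CON 23, 13.4% of the counts were on the top 10 genes. The CON cerebrum median of that share was 5.07%. Its neuron markers summed to 9270 CPM, against 2329 to 4919 CPM in the other cerebrum libraries. The part of these features in its low values was not tested.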

How the results depend on the processing

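The 4 liver estimates of RES against CON stayed above 0 under all alternatives run. This is no separate support, since higher RES liver values chose the genes. Leaving out the 4 fetuses with a liver mitochondrial share above 20% gave 0.67, 0.75, 0.66 and 1.09 for *ENTPD8*, *TMEM86B*, *RRP1B* and *IFITM5*, and 3 of those fetuses were RES. The main test called 0 genes for diet in muscle and in the liver, and DESeq2's Wald test called 13 and 86, the cause of which was not tested. At an unadjusted *p* under 0.05 the cerebrum count of 387 was 108 without RES 1, 242 without CON 73 and 635 without RES 6, the muscle count of 1480 was 919 without RES 6, and the liver count of 3260 was between 1791 (without RES 6) and 4726 (without CON 2) over single omissions, 1674 on total counts, 1348 without sex, 922 without the 4 fetuses and 747 with the mitochondrial share as a covariate.

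Outside the liver, small diet estimates changed sign. *IFITM5* in the cerebrum was -0.045 in males, -0.23 without CON 2 and RES 1, and -0.11 to 0.33 over the omission of single fetuses. *IFITM5* in muscle was -0.013 without CON 2 and RES 1 and -0.023 to 0.28 over single omissions. Single omissions gave -0.015 to 0.097 for *RRP1B* in the cerebrum and -0.22 to 0.035 for *TMEM86B* in muscle.

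Liver against cerebrum for *RRP1B* was -0.39 on total counts and -0.11 on totals without mitochondrial genes, and against muscle -0.61 and -0.30. *IFITM5* in liver against cerebrum was -0.94 in CON libraries, -1.27 on total counts, -0.91 without mitochondrial genes, -0.68 without the 4 fetuses, -0.025 with no filter, -0.012 with DESeq2's size factors, -0.0098 by its Wald test, and -0.16 to 0.20 over single omissions. Muscle against cerebrum for *TMEM86B* was 0.059 without the 4 fetuses and -0.12 to 0.10 over single omissions. With the animal as a replicate block it was 0.0011, and that paired fit called 13,437, 13,157 and 10,888 genes for liver against cerebrum, liver against muscle and muscle against cerebrum, against 13,359, 13,105 and 10,879 without it. It changed no call of *TMEM86B*, *RRP1B* or *IFITM5*.

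Depth limits *IFITM5* in the liver (4 to 44 counts) and *ENTPD8* outside it (0 to 12 counts).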

Other observations

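The gene order of ARS-UCD2.0 was searched on each side of the 4 genes for the nearest gene with counts and a symbol. *IFITM5* lies within the span of *PGGHG*, which encodes a glucosidase of hydroxylysine-linked sugars, and the nearest such gene before it is *COX8B*, a subunit of cytochrome c oxidase, with *NLRP6* nearer. In the liver *COX8B* stood at 3.54 ± 2.17 CPM in CON and 7.04 ± 4.80 CPM in RES (log2 difference 1.05, adjusted *p* = 0.188 by edgeR), and *PGGHG* at 19.7 ± 6.98 and 25.8 ± 6.93 CPM (0.47, adjusted *p* = 0.187). *DPH7*, a diphthamide synthesis gene after *ENTPD8* with *NSMF* nearer, stood at 85.5 ± 54.5 and 148 ± 94.0 CPM (0.86, adjusted *p* = 0.186), while *EXD3*, directly before it, stood at 2.94 and 3.17 CPM (0.15, adjusted *p* = 0.753). Around *TMEM86B*, with *PPP6R1* and *PTPRH* nearer, *HSPBP1* stood at 38.5 and 46.3 CPM (0.30, adjusted *p* = 0.262) and *SYT5* at 1.89 and 1.75 CPM (-0.18, adjusted *p* = 0.779). *HSF2BP* and *PDXK*, directly beside *RRP1B*, stood at 0.28 (adjusted *p* = 0.480) and -0.19 (adjusted *p* = 0.563). None of these 8 neighbours passed the adjustment. *LRATD1*, the nearest such gene after *IFITM5*, with *IFITM2* nearer, was below the liver filter (0.315 CPM in CON and 0.070 CPM in RES), and the overlapping *NBAS* is not analysed here by name. Reads on *PGGHG* and *IFITM5*, and on *ENTPD8* and the overlapping *NOXA1*, could be shared, since the strand setting of the counter is not given in the sources used here.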
